A study of Mus musculus with 6 samples.

Results

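The genes described here encode chloride transporters and channels or members of their families: the cotransporter genes Slc12a2, Slc12a5 and Slc12a7, the CLC genes Clcn2 and Clcn3, the anoctamin genes Ano1 and Ano3, and the volume-regulated channel gene Lrrc8a. They were chosen by name, and each of the 8 symbols matched 1 of the 41388 gene identifiers in the count files. RNA was sequenced from dorsal root ganglion (DRG) cells of C57BL/6 mouse embryos at 18.5 dpc (days post coitum), sorted for EGFP under the control of Ret, a receptor tyrosine kinase gene used to mark subsets of sensory neurons. All 6 libraries carried the reporter, written Tg(Ret-EGFP)SJ in the genotype labels and as a heterozygous knock-in at the Ret locus in the series text. EGFP-negative cells were not analysed here, and no level below is an enrichment over them.

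Pools of ganglia from spinal levels T11 to S1 stood behind the libraries. Males and females had 1 library each of 60 ganglia from 3 embryos (both lettered A). Males C and D came from 2 embryos and 40 ganglia each, and females B and C from a single embryo and 20 ganglia each. The embryos of female A and of male C came from 2 mothers. The labels name sex as the only grouping, with 3 libraries each, and pool size varies within males and within females. Total counts ran from 17861500 to 29330101, at which 3 counts, the most that a count of 0 allows, equal 0.102 to 0.168 CPM (counts scaled to a common library total). Ret was detected in every library (181 ± 27.1 CPM, SD, n = 6), and Y-linked genes were present in all 3 males and near 0 in all 3 females. Xist stood at 111 to 197 CPM in females and below 1 CPM in male A and male D, but at 58.9 CPM in the library labelled male C. Summed sensory neuron markers (12 genes) ran from 14720 CPM in male A to 20379 CPM in female B. Male A also stood apart in glial markers, with 3246 CPM against 1308 to 1434 CPM elsewhere (12 genes, 9 highest in male A). Its fibroblast markers reached 2873 CPM against 574 to 675 CPM (7 genes, 6 highest in male A). Endothelial markers (10 genes) summed to 107 CPM in male A, with the other libraries at 43.4 to 83.7 CPM, leukocyte markers (7 genes) to 4.81 CPM in male A against 1.55 to 2.87 CPM, and erythroid markers (6 genes) to 10.3 to 55.9 CPM over all libraries. No marker of these lists was at 0 in all libraries. In sorted bulk RNA, fewer cells expressing a gene and less RNA per cell cannot be told apart.

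Opening of a GABA-A receptor lets chloride flow down its electrochemical gradient, so the balance of chloride loading and extrusion sets whether GABA depolarizes or hyperpolarizes a neuron. The sodium-potassium-chloride cotransporter NKCC1 (Slc12a2) loads cells with chloride, and the neuronal potassium-chloride cotransporter KCC2 (Slc12a5) extrudes it. Sensory neurons of the DRG are known for keeping chloride high into adulthood, and GABA depolarizes their central terminals, an effect that takes part in presynaptic inhibition in the spinal cord. Chloride channels then provide the paths for current: anoctamins gated by calcium, CLC proteins at the plasma membrane or in endosomes, and LRRC8 channels gated by cell swelling.

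The sequence before the start site is shown for the most abundant member, Lrrc8a, and for Ano1 and Slc12a5, whose levels were lowest, because these mark the ends of the range. Sequences were taken from RefSeq (GRCm38.p6), which matched 7 of the 8 members, and cover 250 bases before the first listed start, 5′ to 3′ on the gene's strand. Capitals mark any match, on either strand, to TGACGTCA (the cyclic AMP response element), CACGTG (an E-box), CCAAT or TATAAA, motifs chosen after the sequences were seen.
Lrrc8a, chr2:30237519-30237768, plus strand: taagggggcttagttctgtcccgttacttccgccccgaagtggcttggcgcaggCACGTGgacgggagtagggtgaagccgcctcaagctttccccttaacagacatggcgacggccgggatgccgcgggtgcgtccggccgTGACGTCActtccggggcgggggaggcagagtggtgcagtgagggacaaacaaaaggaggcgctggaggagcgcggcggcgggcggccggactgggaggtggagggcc
Ano1, chr7:144738574-144738823, minus strand: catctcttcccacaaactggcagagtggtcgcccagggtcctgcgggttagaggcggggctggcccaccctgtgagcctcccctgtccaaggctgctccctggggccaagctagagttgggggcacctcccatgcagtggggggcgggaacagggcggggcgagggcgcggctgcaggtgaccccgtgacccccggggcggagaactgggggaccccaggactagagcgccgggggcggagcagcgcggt
Slc12a5, chr2:164960596-164960845, plus strand: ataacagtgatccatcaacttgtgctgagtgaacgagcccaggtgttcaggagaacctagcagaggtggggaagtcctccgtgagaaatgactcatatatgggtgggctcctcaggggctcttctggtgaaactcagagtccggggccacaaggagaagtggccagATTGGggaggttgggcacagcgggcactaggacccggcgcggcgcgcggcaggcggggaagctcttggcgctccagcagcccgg
In Lrrc8a, TGACGTCA lay 108 to 101 bases and CACGTG 196 to 191 bases before the start. Of 32851 windows of the same length, from 27025 genes, 1.55% held TGACGTCA and 6.02% held CACGTG. The Slc12a5 window held CCAAT on the opposite strand, 84 to 80 bases before the start, as did 33.8% of all windows on one strand or the other. Slc12a5 has a second listed start, whose window is not shown. It held CACGTG 36 to 31 bases before that start and no CCAAT. The Ano1 window held none of the 4 motifs, and TATAAA, found in 12.4% of windows, was in none of the 3 windows shown. The matches did not overlap. GC content was 72.0% in Ano1, 68.0% in Lrrc8a and 61.2% in Slc12a5, against a median of 52.4% over all windows.

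Levels of different genes were compared per length, as RPKM (CPM per kilobase of summed exon, with TMM scaling between libraries). Over the 6 libraries the members spanned more than 3 orders of magnitude in mean level. The order was Lrrc8a (89.5 RPKM), Ano3 (19.0), Clcn3 (16.7), Slc12a2 (12.8), Slc12a7 (3.33), Clcn2 (0.6247), Ano1 (0.0683) and Slc12a5 (0.0331 RPKM). Each neighbouring pair was compared by its ratio within a library, with an exact two-sided sign-flip permutation test over 6 libraries adjusted over the 7 pairs. The smallest p this test allows is 0.0312. Of the 7 pairs, 5 had the same order in 6 of 6 libraries, each at that smallest p (adjusted p = 0.0438 each, exact test). The order was taken from the means of these same libraries, so the tests describe how steady it was between them and are not independent support. Ano3 and Clcn3 were not separated, with a ratio of 1.08 that ranged from 0.662 to 1.31 between libraries (adjusted p = 0.562, exact permutation test). Ano1 and Slc12a5 were not separated either, with a ratio of 1.49 that ranged from 0.345 to 5.51 (adjusted p = 0.474, exact permutation test). The place of Clcn3 depends on the length used: its summed exons measure 17071 bases and its longest annotated transcript 8193 bases. With longest transcripts Clcn3 stood above Ano3 in 6 of 6 libraries, by 1.80 times (adjusted p = 0.0365, exact permutation test).

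**Figure D1:**
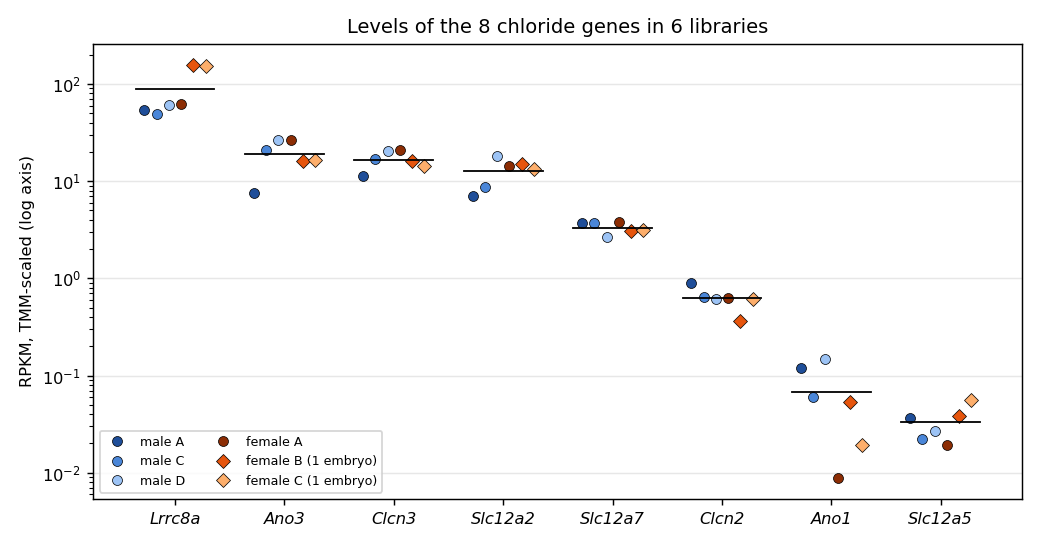
Level of each member (RPKM with TMM scaling, log axis) in the 6 libraries. Circles are libraries pooled from 2 or 3 embryos, diamonds are libraries of 1 embryo, blue shades are male and orange shades female, and black lines are means over the 6 libraries. Lrrc8a lies above the other members in every library, and Ano1 and Slc12a5 lie below 0.15 RPKM throughout.

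The chloride importer gene was expressed well above the neuronal exporter gene in every library. Slc12a2 (ENSMUSG00000024597, GRCm38 chromosome 18, 57878678 to 57946821, plus strand) had 886, 1787 and 2492 counts in males A, C and D and 2044, 1767 and 1740 counts in females A, B and C. These correspond to 7.10, 8.67 and 18.3 RPKM in the males and to 14.3, 15.0 and 13.4 RPKM in the females (12.8 ± 4.18, SD, n = 6). Male A and male C were the lowest libraries and male D the highest, with the females close to one another between them. The mean placed Slc12a2 above 73.7% of the 14958 genes that passed the filter on low counts. Slc12a5 (ENSMUSG00000017740, chromosome 2, 164960816 to 164999727, plus strand) had 5, 5 and 4 counts in males A, C and D and 3, 5 and 8 counts in females A, B and C. Its level was 0.0331 ± 0.0135 RPKM (SD, n = 6), and it did not pass the filter. The 30 counts over all libraries have a 95% exact Poisson interval of 20.2 to 42.8, which covers counting error only, because reads amplified by PCR can repeat 1 molecule. Whether these few reads came from spliced transcripts was not tested.

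Divided within each library and corrected for length, Slc12a2 exceeded Slc12a5 by 195, 393 and 686 times in males A, C and D and by 750, 389 and 239 times in females A, B and C. The geometric mean was 393 and the SD of the log2 ratio 0.78 (n = 6, p = 0.0312, exact two-sided sign-flip permutation test, the smallest it can give). The 95% exact counting interval of the ratio was 83.3 to 602 in male A, the lowest library, and 256 to 3640 in female A, the highest, so that both hold the geometric mean. The ratio of summed counts was 393, with an interval of 275 to 583. Leaving out each library in turn gave geometric means of 345 to 452 (p = 0.0625 each, the smallest that 5 libraries allow in the exact test), the highest of them without male A. The geometric mean was 412 in females and 375 in males, a log2 difference of 0.14 (p = 0.8, exact two-sided permutation test, 3 libraries against 3, smallest possible p = 0.1).

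The ratio of Slc12a2 to the other members varied widely, from 263 for Ano1 to 0.154 for Lrrc8a. It was 3.68 to Slc12a7 (lowest 1.91 in male A, highest 6.93 in male D), and 20.1 to Clcn2 (7.94 in male A to 40.8 in female B). It was 263 to Ano1, with a range of 59.0 to 1632 whose upper end rests on 1 Ano1 count in female A and has a counting interval of 293 to 64494. In all 6 libraries Slc12a2 stood below Clcn3 (ratio 0.746, from 0.518 to 0.933), below Ano3 (0.694, from 0.415 to 0.9495) and below Lrrc8a (0.154, from 0.0879 to 0.301). With longest transcripts the ratio to Clcn3 was 0.358.

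**Figure D2:**
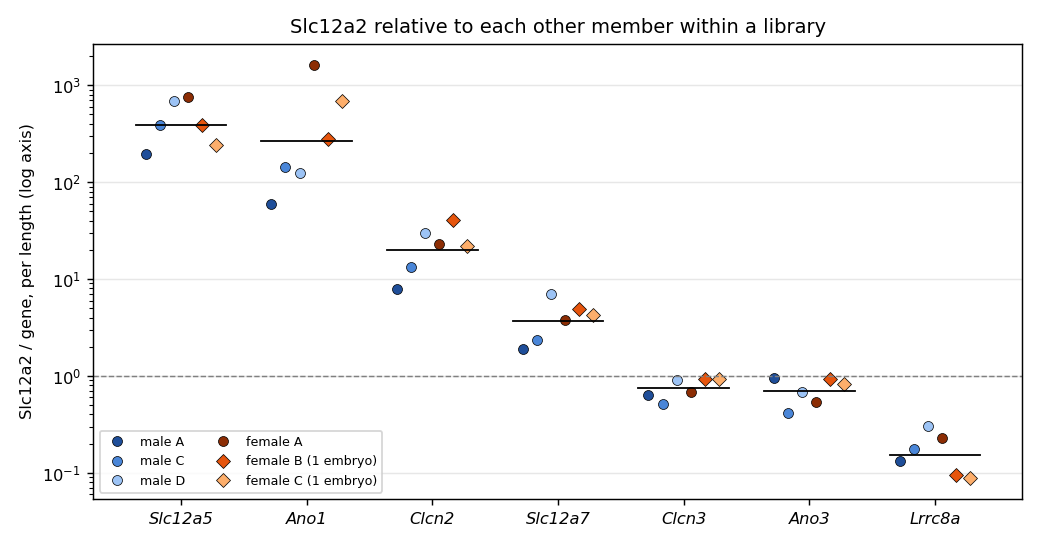
Ratio of Slc12a2 to each other member within a library, per length (log axis), with black lines at the geometric means and a dashed line at 1. Symbols are as in the plot of member levels. The ratio to Slc12a5 lies between 195 and 750 in all 6 libraries, and the ratios to Clcn3, Ano3 and Lrrc8a lie below 1.

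The potassium-chloride cotransporter genes Slc12a7 and Slc12a4 stood far above Slc12a5. Slc12a7 encodes KCC4, a potassium-chloride cotransporter found in many tissues (ENSMUSG00000017756, chromosome 13, 73763697 to 73816743, plus strand). It stood at 3.72, 3.68 and 2.64 RPKM in males A, C and D and at 3.76, 3.07 and 3.14 RPKM in females A, B and C (3.33 ± 0.454, SD, n = 6). It was the steadiest member, with a coefficient of variation of 13.6% against 22.2% to 80.7% for the other 7. Slc12a4 (KCC1) was at 1.19 ± 0.786 RPKM (SD, n = 6). Slc12a4 reached 2.77 RPKM in male A, the library with the highest glial and fibroblast markers, against 0.624 to 0.95 RPKM in the other 5 libraries. The part of those cells in the Slc12a4 level was not tested. A ratio of mRNA levels is not a ratio of transport.

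**Figure D3:**
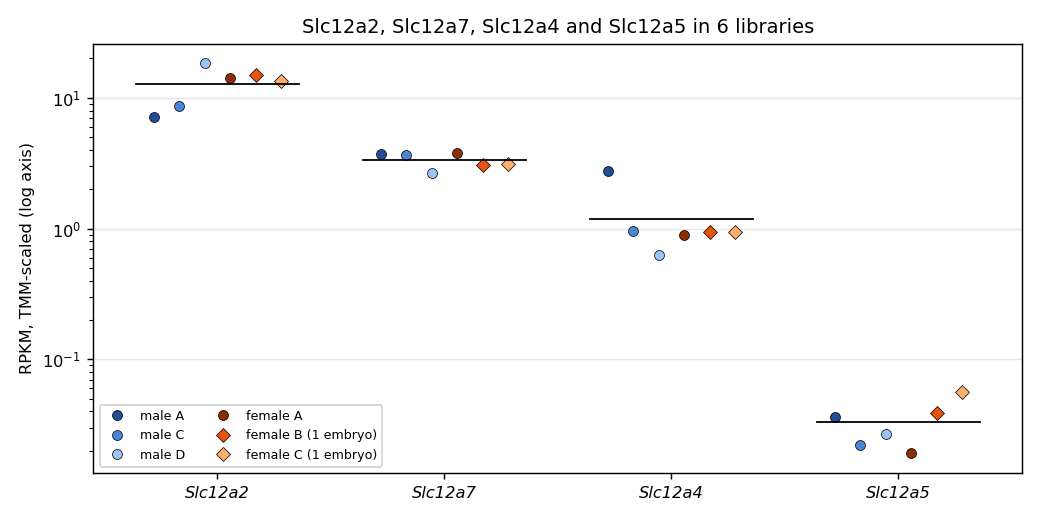
Levels (RPKM with TMM scaling, log axis) of Slc12a2, Slc12a7, Slc12a4 and Slc12a5 in the 6 libraries, with black lines at the means. Slc12a7 lies within 2.64 and 3.76 RPKM, Slc12a5 below 0.06 RPKM, and male A stands highest for Slc12a4 and lowest for Slc12a2.

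Genes that regulate the cotransporters were present as well. WNK kinases sense chloride and act through the kinases SPAK (Stk39) and OSR1 (Oxsr1) to activate NKCC1 and inhibit KCCs. Of 13 genes in this list, 9 had at least 1 RPKM in every library. Its highest member was Cab39l, which encodes a scaffold protein related to the SPAK activator MO25 (86.8 ± 14.1 RPKM, SD, n = 6). In the cotransporter list of 9 genes, 4 stayed below 0.5 RPKM in every library.

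The CLC members differed in level by more than an order of magnitude. Clcn3 encodes an endosomal chloride-proton exchanger (ENSMUSG00000004319, chromosome 8, 60910389 to 60983300, minus strand). It stood at 11.3, 16.7 and 20.4 RPKM in males A, C and D and at 21.1, 16.1 and 14.3 RPKM in females A, B and C (16.7 ± 3.69, SD, n = 6), lowest in male A. Clcn2 encodes ClC-2, a plasma membrane channel opened by hyperpolarization (ENSMUSG00000022843, chromosome 16, 20702964 to 20717746, minus strand). It stood at 0.894, 0.646 and 0.613 RPKM in males A, C and D and at 0.621, 0.367 and 0.607 RPKM in females A, B and C (0.6247 ± 0.167, SD, n = 6). Its highest library was male A and its lowest female B, while the other 4 lay within 0.607 and 0.646 RPKM. Among the 9 CLC genes, Clcn4, another endosomal exchanger, took 56.7% of the summed level (60.2 ± 5.03 RPKM), Clcn3 15.6% and Clcn2 0.598%. Clcn5, an endosomal exchanger known from kidney tubules, was next to Clcn3 at 11.8 ± 2.55 RPKM (SD, n = 6).

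Of the anoctamins, the gene of the classical calcium-activated chloride channel was close to the detection limit. Ano1 (ENSMUSG00000031075, chromosome 7, 144588549 to 144751974, minus strand) encodes this channel, which acts as a heat-sensitive depolarizing channel in adult nociceptors. It had 12, 10 and 16 counts in males A, C and D and 1, 5 and 2 counts in females A, B and C, or 0.0683 ± 0.0551 RPKM (SD, n = 6). Each male library lay above each female library in RPKM. Among 2684 genes outside the filter with 20 to 100 counts over all libraries, Ano1 included, 4.69% had every male above every female. The 38 male and 8 female counts did not pass the filter on low counts. When all 25811 genes with counts were tested, Ano1 had a log2 difference (female minus male) of -2.01 with a standard error of 0.87 (edgeR, adjusted p = 0.772), which is not past the threshold.

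Ano3 encodes an anoctamin of intracellular membranes whose own channel activity is disputed (ENSMUSG00000074968, chromosome 2, 110655201 to 110950923, minus strand). It stood at 7.48, 20.9 and 26.7 RPKM in males A, C and D and at 26.7, 16.0 and 16.3 RPKM in females A, B and C (19.0 ± 7.35, SD, n = 6). Male A was the lowest library, far from the next at 16.0 RPKM, and it was also the lowest in summed neuron markers. Ano3 made up 21.2% of the summed level of 10 anoctamin genes (10.8% to 28.3%), and Ano1 0.0824%. The most abundant were Ano10 (31.2 ± 2.80 RPKM) and the phospholipid scramblase gene Ano6 (23.4 ± 4.55 RPKM, SD, n = 6), and 5 of the 10 stayed below 0.5 RPKM in every library.

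Lrrc8a was the most abundant member, and its level set the 2 libraries of 1 embryo, females B and C, above the 4 pooled libraries. It encodes the subunit that every volume-regulated anion channel needs, combined with at least one of its paralogues (ENSMUSG00000007476, chromosome 2, 30237715 to 30263790, plus strand). It stood at 53.8, 49.6 and 60.8 RPKM in males A, C and D, at 62.6 RPKM in female A, and at 158 and 152 RPKM in females B and C. The 4 pooled libraries were close to one another (56.7 ± 6.05 RPKM, SD, n = 4), and the 2 libraries of 1 embryo had a mean of 155 RPKM. Of the summed level of the 5 subunit genes, Lrrc8a took 69.6% to 73.8% in the pooled libraries and 89.8% and 90.3% in females B and C. The partner genes did not share this pattern: Lrrc8c (8.73 ± 1.72 RPKM), Lrrc8d (6.51 ± 0.610 RPKM) and Lrrc8b (5.14 ± 1.53 RPKM, SD, n = 6) did not lie above all the pooled libraries in females B and C. In those 2 libraries Lrrc8b stood at 3.93 and 3.51 RPKM, below every pooled library (4.30 to 7.24 RPKM). Lrrc8d, at 5.58 and 6.03 RPKM, also lay below every pooled library (6.59 to 7.15 RPKM). The 2 kinds of library did not overlap, in one direction or the other, in 21.6% of genes. Lrrc8e lay below 0.2 RPKM in every library. Lrrc8a over the sum of the other 4 was 2.29 to 2.82 in the pooled libraries and 8.77 and 9.26 in females B and C.

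The Lrrc8a level depends on how reads on overlapping genes were counted. Of its 4308 exon bases, 2944 are shared with other annotated genes, 2855 of them with Gm28035, a readthrough gene on the same strand that had 0 counts in every library. If reads on shared bases went uncounted, the mean level would be 283 RPKM, and Lrrc8a over the other 4 subunits 7.19 to 8.86 in the pooled libraries and 27.5 and 29.1 in females B and C. The contrast between the libraries does not depend on the length.

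**Figure D4:**
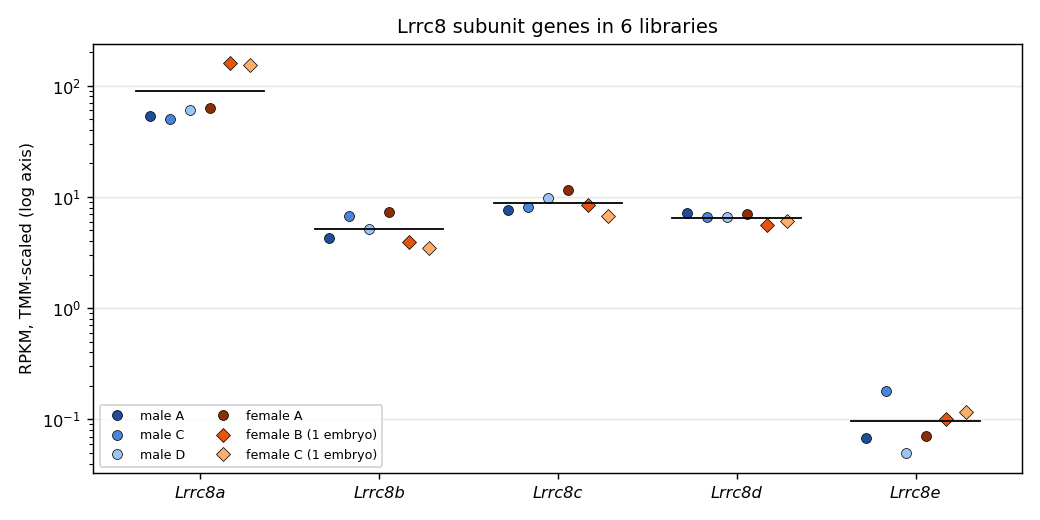
Levels (RPKM with TMM scaling, log axis) of the 5 Lrrc8 subunit genes in the 6 libraries, with black lines at the means. For Lrrc8a the diamonds of females B and C lie at 158 and 152 RPKM, above the 4 pooled libraries at 49.6 to 62.6 RPKM, and for no other subunit do both diamonds lie above all pooled libraries.

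To determine whether chloride genes differed between the sexes, females were compared with males by the edgeR quasi-likelihood F-test on the counts of all 14958 genes, with Benjamini-Hochberg adjustment. Male C was kept in the male group, as labelled, although its Xist level was 58.9 CPM. None of the 6 members tested passed an adjusted p of 0.05, where 0.0267% of all genes did. One member, Lrrc8a, had an unadjusted p under 0.05, as did 4.42% of all genes. Its log2 difference (female minus male) was 1.18 with a standard error of 0.33 (adjusted p = 0.961, edgeR), and all 3 females lay above all 3 males. The sexes did not overlap, in one direction or the other, in 8.06% of genes. Female A, at 62.6 RPKM, was close to male D, at 60.8 RPKM, and with a term for libraries of 1 embryo the log2 difference was 0.19. DESeq2 called 0 of the members, with an adjusted p of 0.256 for Lrrc8a. For Slc12a2 the log2 difference was 0.32 with a standard error of 0.33 (adjusted p = 0.97), and it ranged from 0.08 without male A to 0.85 without male D. For Clcn2 it was -0.43 with a standard error of 0.35 (adjusted p = 0.966), and it ranged from -0.22 without female B to -0.56 without female A. Slc12a7 (-0.01), Clcn3 (0.09) and Ano3 (0.10) had log2 differences smaller than their standard errors of 0.23 to 0.42, and the sign of each changed when single libraries were left out. In simulated libraries with the spread of these, the sex test recovered 25.4% of genes changed 2-fold and 72.5% of those changed 4-fold.

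Females B and C were then compared with the 4 pooled libraries, with sex as a term. Both are female, so that pool size can be told apart from sex only through female A. Number of embryos, number of ganglia and any other trait particular to females B and C cannot be told apart. None of the 6 members passed an adjusted p of 0.05 (0% of all genes did), and 1 had an unadjusted p under 0.05, as did 3.23% of all genes. That member was Lrrc8a, with a log2 difference (1 embryo minus pooled) of 1.31, a standard error of 0.28 and an adjusted p of 0.9997 by edgeR. DESeq2 gave it a log2 difference of 1.32 and an adjusted p of 0.0274, which is past the threshold and 1 of 13 calls over all genes. Both libraries of 1 embryo lay above every pooled library for Lrrc8a, as they did for 11.3% of genes. In 21.6% of genes the 2 kinds of library did not overlap in one direction or the other. The same 2 libraries had the highest summed neuron markers, at 20379 and 19850 CPM against 14720 to 16649 CPM, and the part of this in the Lrrc8a level was not tested. The other 5 members had negative log2 differences: -0.72 for Ano3, -0.47 for Clcn3, -0.35 for Clcn2, -0.28 for Slc12a7 and -0.01 for Slc12a2, with standard errors of 0.35 to 0.62. In simulated libraries this test recovered 1.49% of genes changed 2-fold and 36.2% of those changed 4-fold.

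**Figure D5:**
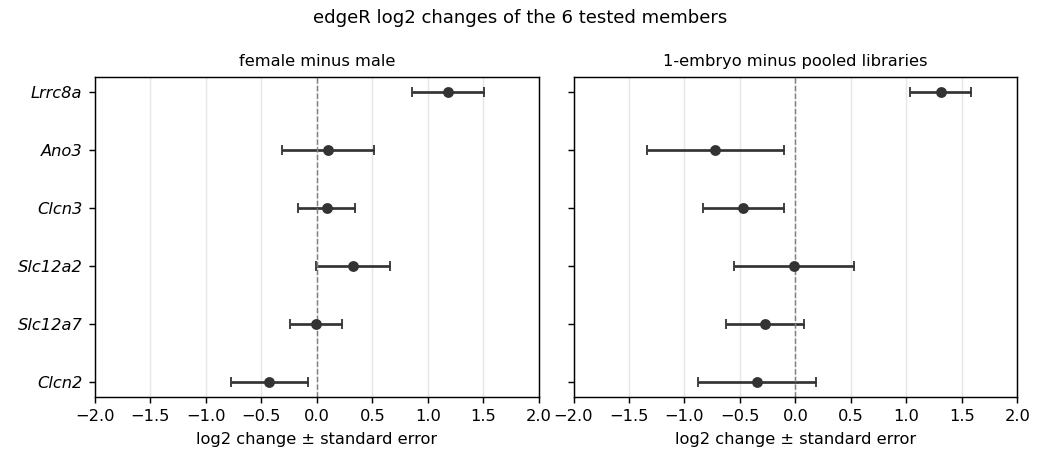
Log2 differences fitted by edgeR for the 6 tested members, females minus males on the left and libraries of 1 embryo minus pooled libraries on the right, with bars of 1 standard error. Lrrc8a stands at 1.18 and 1.31, and the other 5 members lie within -0.72 and 0.32.

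The wider gene lists around the members gave no call in either comparison by edgeR. Between the sexes, 5 of 7 tested cotransporter genes, 10 of 13 regulators, 5 of 9 CLC genes, 5 of 8 anoctamins, 2 of 4 Lrrc8 genes and 10 of 19 other anion channel and exchanger genes had positive log2 differences (female minus male). The medians lay between -0.03 and 0.28, against 0.00 over all 14958 genes tested, of which 7405 had positive differences. In libraries of 1 embryo, positive differences were found for 4 of 7 cotransporter genes, 2 of 13 regulators, 1 of 9 CLC genes, 1 of 8 anoctamins, 1 of 4 Lrrc8 genes and 9 of 19 others. Their medians ran from -0.45 for Lrrc8 genes to 0.06 for cotransporters. Over all 14958 genes tested the median was -0.00112, and 7461 genes had positive differences. Among the other anion channels, Clic1, which encodes a chloride intracellular channel protein, had the highest level (148 ± 24.3 RPKM), followed by Ttyh2, a tweety family gene (32.2 ± 10.7 RPKM, SD, n = 6). Of these 28 genes, 9 stayed below 0.5 RPKM in every library.

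The genes whose level across the 6 libraries was most like that of Slc12a2 were Mtdh (Pearson r = 0.997), Larp4b (0.994) and Pde3b (0.993), on log2 CPM among 10469 genes with a mean of at least 5 CPM. Over so few libraries 480 genes had r above 0.9, and these values are a description, since all genes share the same libraries and their depths. For Slc12a5, which had 3 to 8 counts a library, the corresponding genes were Efna2 (0.989), Nelfa (0.985) and Map1lc3b (0.978), and 112 genes had r above 0.9.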

How the data were processed

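RNA of sorted EGFP-positive DRG cells was amplified from 10 ng with a SMARTer kit, per the labels' protocols. Subread and featureCounts 1.4.5 were used on GRCm38.p2, per the submitters' processing notes. The sources used here give neither the Subread version nor the strand, multi-mapping and overlap settings. The authors deposited raw counts per Ensembl gene with summed exon lengths. The deposited CPM values are these counts scaled to a common library total, and the deposited RPKM values are CPM per kilobase of that length. Both were recomputed from the counts within a tolerance of 1e-06 and were not used further. Symbols were found for 40254 of 41388 identifiers.

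Levels are CPM divided by length, with TMM factors (0.922 to 1.08). Tests used edgeR 4.0.16 in R 4.3.3 with genes kept by filterByExpr on sex, terms for sex or for sex and libraries of 1 embryo, and a threshold of adjusted p under 0.05. The common dispersion was 0.0966 for sex, a biological coefficient of variation of 31.1%. Standard errors are the log2 change divided by the square root of F. Replicates are separate libraries of 1 to 3 embryos, and p-values measure the spread between them. Ratios used counts per length within a library, with exact tests in python 3.11.15. Exon overlaps came from GENCODE M21, and near-identical copies (95% identity over 150 bases) were searched with blastn 2.17.0; none was found for the members apart from Lrrc8a and its readthrough gene. The scripts were tested on simulated data of 14958 genes.

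Named genes are the members, the 2 most abundant non-members of each list, list genes past the threshold, and the 3 genes most like Slc12a2 and Slc12a5. Wnk kinases, Lrrc8b, Lrrc8e, Stk39, Oxsr1 and Gm28035 are outside this rule and were chosen after values were seen. Some genes of the lists are left out of the text. Clcn4-2 and Pacc1 had no match by symbol. The members and lists were chosen with earlier results of these data known. Alternatives were RLE factors, other low-count filters, DESeq2 1.42.0, leaving out each library, a replicate block, other terms, and other lengths or units.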

Additional observations from a re-analysis of the deposited data

Results flagged for a closer look

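Slc12a4, the KCC1 gene, stood at 2.77 RPKM in male A, against 0.624 to 0.95 RPKM in the other 5 libraries. The gap between male A and the next library was 0.848 of the whole range, above Dixon's 95% critical value for 6 samples. It was the only one of 27 levels and ratios examined to pass that limit, and chance passes about 1 in 20.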

How the results depend on the processing

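Between the sexes 0 of 6 members were called under any of 12 alternatives. Over all genes the 4 calls became 14 without a low-count filter, 13 with DESeq2, 77 with the replicate block and 0 with a term for libraries of 1 embryo, and ranged from 0 (without female A) to 5 when each library was left out. The block rests on letters shared by 2 pairs (correlation of deviations -0.08 for A and 0.05 for C), which do not pair the samples. Between libraries of 1 embryo and pooled libraries 0 calls became 3 without a low-count filter, 3 without the sex term (chosen after the data were seen) and 13 with DESeq2, which called 1 member, Lrrc8a. The log2 difference of Lrrc8a ranged from 1.28 to 1.45 in that comparison, with adjusted p from 0.0274 to 1. Small sex differences changed sign. Slc12a7 became 0.071 without male A, 0.07 without male C, 0.05 without female B, 0.03 without female C and 0.17 with the 1-embryo term. Clcn3 became -0.11 without male A and -0.09 without female A, and Ano3 -0.28 and -0.19. Over the libraries left out, the sex difference ran from -0.15 to 0.071 for Slc12a7, from -0.11 to 0.29 for Clcn3 and from -0.28 to 0.47 for Ano3. In the 1-embryo comparison Slc12a2 became 0.00296 with RLE factors, 0.00298 with DESeq2, 0.068 without female C and 0.23 without the sex term, and ran from -0.098 to 0.068 over the libraries left out. The cause of these changes was not tested. The 1-embryo comparison could not be fitted without female A, and the order of levels was not retested with 5 libraries, where the exact test cannot pass. Leaving out each library, the ratio of Slc12a2 to Slc12a5 ran from 345 to 452, with p = 0.0625 in the exact test, past the threshold in none. Its sex difference on the log2 scale ran from -0.33 (without male A) to 0.57 and was -0.30 without female A, so the sign turned in both. With longest transcripts Clcn3 and Ano3 changed places, and 6 rather than 5 neighbouring pairs were separated.

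Depth limits Slc12a5 and Ano1, whose levels rest on 30 and 46 counts in all.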
